A study of Mus musculus with 23 samples.

Results

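The 10 genes described here encode 4 annexins (Anxa1, Anxa2, Anxa4, Anxa5), 4 S100 proteins (S100a4, S100a6, S100a10, S100a11) and 2 galectins (Lgals1, Lgals3), out of 18193 genes on the array. They were chosen by their measured log2 levels over the 9 groups of arrays, so those levels and the differences between groups are given as a description, with no p-value for any of these genes. Counts of them past the threshold of the fit over all genes stand beside the share of all genes, and nothing is read from them. The annotation gave them 18 probe sets, of which 17 named 1 gene alone. The only probe set for S100a11 also carries the symbols Gm12854 and S100a11-ps, so no level is given for S100a11 and 9 genes remained. Where a gene had several probe sets, the brightest over all arrays stood for it.

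The study profiled mouse CD4+ T cells, sorted by flow cytometry, with 23 Affymetrix M430v2 arrays in 9 groups of 2 to 4, after 2 rounds of RNA amplification. All cells were gated as CD3+ and negative for B220, CD8a and CD11b/c, and came from mice labelled male, aged 6 to 10 weeks. Regulatory T cells (LP Treg, Foxp3-GFP+, 2 arrays) and conventional T cells (LP Tconv, Foxp3-GFP-, 2 arrays) came from the lamina propria of the small intestine of C57BL/6-Foxp3/GFP mice. Regulatory T cells of the peripheral lymph nodes (LN) of the same strain, all Foxp3-GFP+, were split by 2 surface proteins, the integrin chain CD103 (gene Itgae) and the receptor Klrg1. They gave CD103+Klrg1+ cells, CD103+Klrg1- cells and CD103-Klrg1- cells, on 2 arrays each. The homeostatic groups (3 arrays each) were Foxp3-GFP+ and Foxp3-GFP- cells from spleen and lymph nodes of NOD RAG-/- hosts, 14 days after they had received Foxp3-GFP- CD4+ cells of BDC2.5/NOD mice. The DEC groups were CD25+ cells (3 arrays) and CD25- cells (4 arrays) from spleen and lymph nodes of Balb/c hosts, 3 weeks after transfer of CD4+CD25- cells of HA6.5/Thy1.2/RAG-/-/Balb/c mice. Those hosts had been given 1 injection of 50 ng DEC-HAPeptide. The labels call both sorted fractions of each transfer "converted", the Foxp3-GFP- and CD25- fractions included. An array held a pool of 4 to 6 mice in the groups from C57BL/6-Foxp3/GFP animals, of 2 to 3 hosts in the homeostatic groups and of 5 to 10 hosts in the DEC groups. Strain, host and organ differ between these systems, so a level set across them cannot be told apart from those differences.

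Annexins are proteins that bind phospholipid membranes when calcium is present. S100 proteins are small calcium-binding proteins that act through partners, and S100a10 forms a complex with Anxa2 at the plasma membrane. Galectins bind beta-galactosides on glycoproteins, which on T cells depend on the enzymes that build and branch N- and O-glycans. In T cells several of these genes are known as part of the effector and memory programme, and they are also abundant in macrophages and granulocytes.

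Promoter sequences are shown for 4 genes whose levels are compared below: Anxa1 and S100a4, which followed each other closely over the groups, S100a6, whose gene also lies on chromosome 3, and Anxa4, whose order over the groups differed. They are RefSeq sequences of build GRCm38.p6, from 250 bases before to 50 bases after the gene's start, in the direction of the gene. Capitals mark matches to 5 motifs searched on both strands: AP-1, TATA box, NF-kappaB, Kruppel-like factor and Runx. No matches overlapped in the 4 windows shown.
Anxa1, chr19:20390622-20390921, minus strand: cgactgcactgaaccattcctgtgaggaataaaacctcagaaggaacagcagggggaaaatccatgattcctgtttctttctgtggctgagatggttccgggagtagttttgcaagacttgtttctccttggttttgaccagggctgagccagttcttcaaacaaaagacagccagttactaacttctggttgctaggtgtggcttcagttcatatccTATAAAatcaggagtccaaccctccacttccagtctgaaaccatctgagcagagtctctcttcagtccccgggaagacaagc
S100a4, chr3:90603520-90603819, plus strand: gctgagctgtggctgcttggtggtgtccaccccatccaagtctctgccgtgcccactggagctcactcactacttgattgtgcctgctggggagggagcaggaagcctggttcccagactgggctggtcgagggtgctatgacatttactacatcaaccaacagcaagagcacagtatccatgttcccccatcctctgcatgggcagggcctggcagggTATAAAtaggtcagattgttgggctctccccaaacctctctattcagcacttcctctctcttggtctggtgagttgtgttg
S100a6, chr3:90612644-90612943, plus strand: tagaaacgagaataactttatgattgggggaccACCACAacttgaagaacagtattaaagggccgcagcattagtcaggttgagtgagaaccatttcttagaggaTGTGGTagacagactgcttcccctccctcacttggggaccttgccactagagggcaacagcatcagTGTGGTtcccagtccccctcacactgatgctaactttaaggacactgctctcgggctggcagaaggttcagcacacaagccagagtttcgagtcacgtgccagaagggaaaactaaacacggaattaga
Anxa4, chr6:86793535-86793834, minus strand: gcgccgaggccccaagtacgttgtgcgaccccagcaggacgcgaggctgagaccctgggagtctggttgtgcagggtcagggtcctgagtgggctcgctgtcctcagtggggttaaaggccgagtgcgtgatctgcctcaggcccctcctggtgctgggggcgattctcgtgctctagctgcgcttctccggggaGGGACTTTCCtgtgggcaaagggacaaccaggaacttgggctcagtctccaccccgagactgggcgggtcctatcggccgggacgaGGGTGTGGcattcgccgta
The TATA box letters, TATAAA, began 32 bases before the start of Anxa1 and 31 bases before that of S100a4. S100a6 held 3 matches to the Runx letters, TGTGGT, and none to the TATA box. The Anxa4 window held 1 match to an NF-kappaB motif and 1 to the Kruppel-like factor letters, CCACACCC. The table held 9 promoters for 8 of the 10 genes, with 2 for Anxa4, and Lgals1 and S100a10 are named only. The TATA box letters were in 3 of these 9 promoters (Anxa1, Anxa2 and S100a4), against 13.6% of 32851 promoters. The AP-1 letters, TGANTCA, were in 2 (Anxa2 and S100a11), against 7.81%. The Runx, Kruppel-like factor and NF-kappaB motifs were each in 1, against 16.8%, 3.56% and 0.155% of all promoters. These matches describe the letters of the windows alone.

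All values below are log2 array intensities unless another scale is named, differences are on the same scale with their standard error, and the level taken as a minimum was 6.27, the median of all values. A difference that is called passed an adjusted p under 0.05 over 12516 genes in limma. The array medians ran from 63.7 to 81.1 intensity units, with DEC CD25- replicates 3 and 4 the dimmest at 68.5 and 63.7. DEC CD25- replicate 3 also had the widest gap between the 3′ and 5′ Gapdh probe sets, 6.59, a sign of shortened RNA, and the LP Tconv arrays differed in it (3.17 and 1.63). The DEC arrays did not match their labelled sex: Xist, the RNA that coats the silenced X chromosome in female cells, was at 11.85 to 13.25 on the 7 DEC arrays, against 6.47 to 7.67 on the other 16. Foxp3 followed the sort, with group means from 10.35 to 11.21 in LP Treg, homeostatic Foxp3+, DEC CD25+ and lymph node cells, against 4.65 in LP Tconv and 4.76 in homeostatic Foxp3- cells. DEC CD25- cells, sorted by CD25, had 7.97. All 6 measured T cell markers, the Cd3 chains and Cd4 among them, lay above the minimum in every group. In bulk samples of this kind, fewer cells with a transcript and less of it per cell cannot be told apart.

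The 9 genes spanned very unequal ranges over the 9 groups. The highest group mean exceeded the lowest by at least 26.9-fold for Lgals3, and by 25.3-fold for Anxa1, 20.0-fold for S100a4 and 18.5-fold for S100a6. The ratio was 9.51 for Lgals1, 9.13 for Anxa4, 7.94 for Anxa2, 3.14 for S100a10 and 1.66 for Anxa5, the phosphatidylserine-binding annexin. Their median range was 3.25, against 1.01 over the 12516 genes tested, a description of genes chosen for it. The homeostatic groups held the highest mean for 8 of the 9 genes, and LN CD103+Klrg1+ cells held that of Anxa4. The lowest means lay in the CD103-Klrg1- subset for S100a4, S100a6, Lgals1 and Anxa5. Lgals3 lay below the minimum in LP Treg and in both Klrg1- lymph node subsets, so no lowest group is named for it. LP Tconv were lowest for Anxa1 and S100a10, DEC CD25+ for Anxa2 and DEC CD25- for Anxa4. Across neighbours in this order the arrays overlapped for all 8 steps of Anxa5 and for 4 to 6 of the 8 steps of each other gene.

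**Figure D1:**
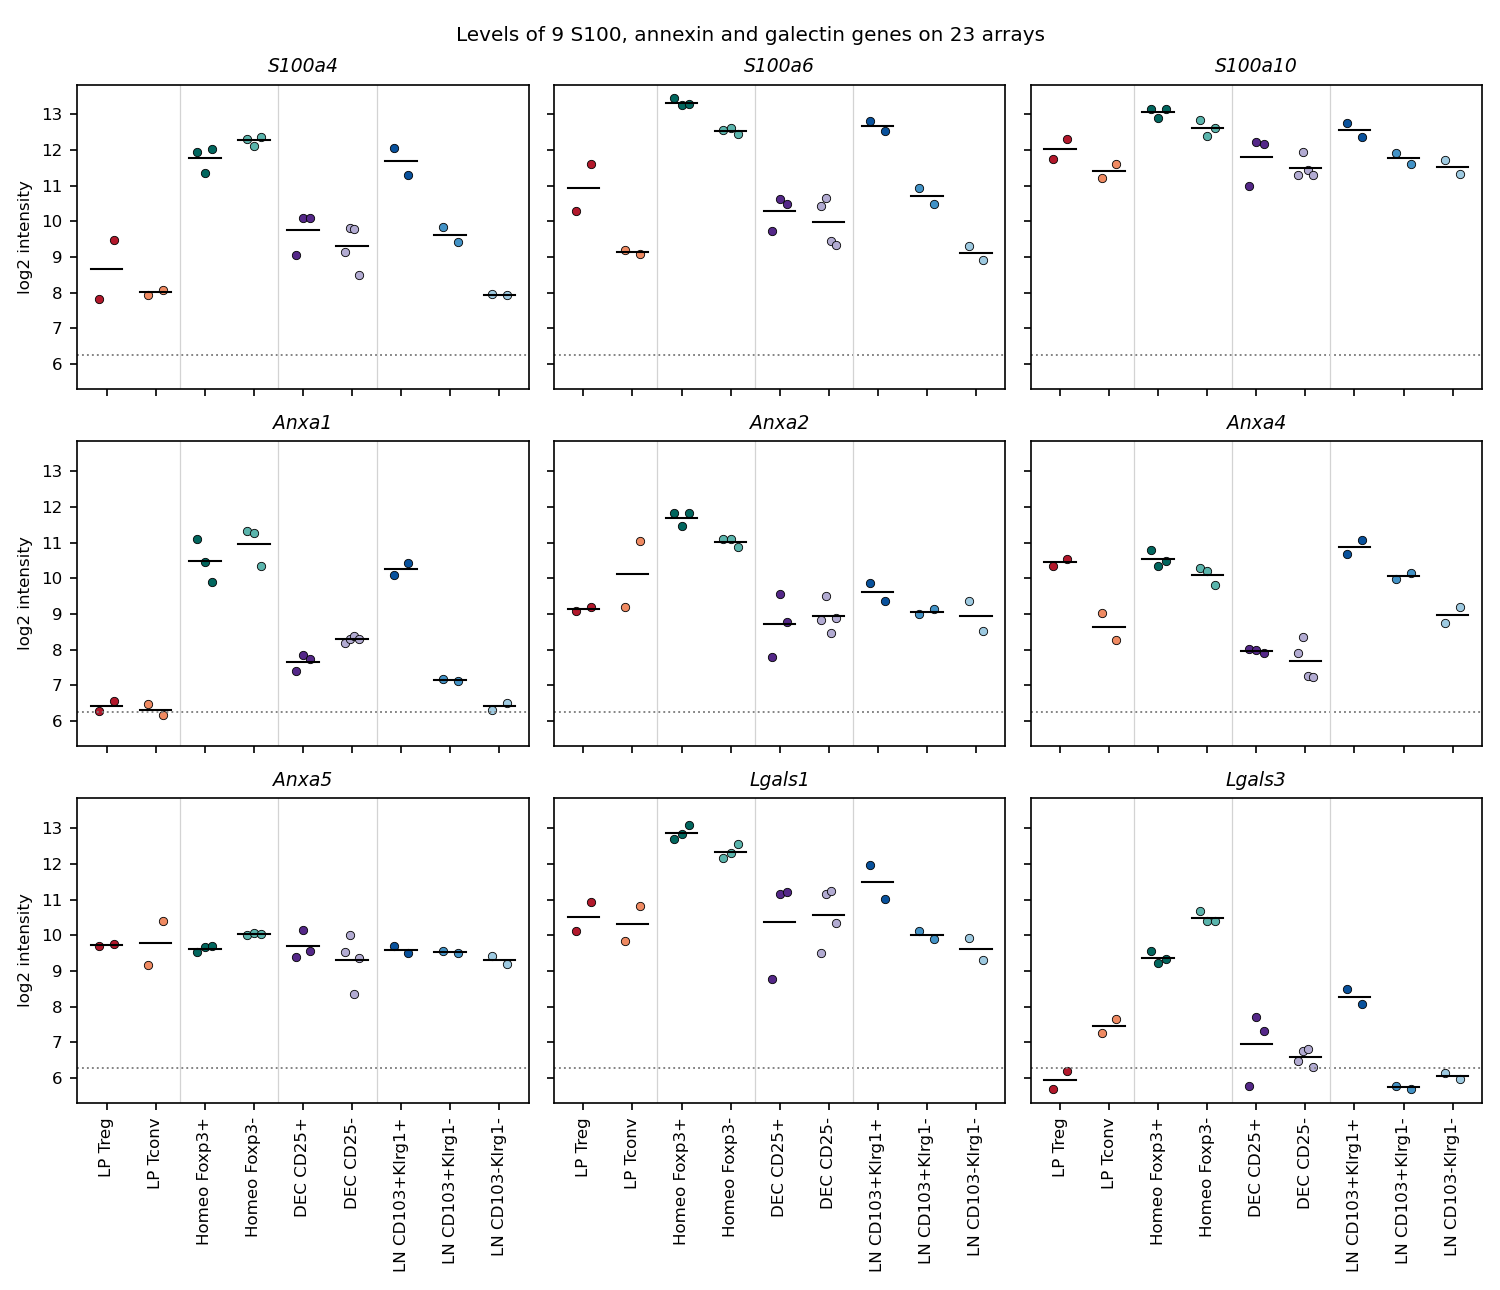
Log2 intensity (vertical axis) of 9 genes on each of 23 arrays, by group, with bars at the group means and a dotted line at the minimum of 6.27. In S100a4, S100a6, Anxa1, Lgals1 and Lgals3 the homeostatic and the LN CD103+Klrg1+ groups hold the 3 highest means, and Anxa5 is nearly level at 9.31 to 10.04.

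Among the lymph node regulatory cells, all 9 genes had their highest mean in the CD103+Klrg1+ subset. S100a4, which binds non-muscle myosin, had 12.07 and 11.31 in CD103+Klrg1+ cells, 9.83 and 9.41 in CD103+Klrg1- cells, and 7.96 and 7.93 in CD103-Klrg1- cells. The 3 subsets did not overlap. S100a4 was higher by 2.07 ± 0.49 in CD103+Klrg1+ than in CD103+Klrg1- cells and by 1.68 ± 0.49 in these than in CD103-Klrg1- cells. S100a6, also known as calcyclin, had 12.81 and 12.53 in CD103+Klrg1+ cells, 10.93 and 10.50 in CD103+Klrg1- cells, and 9.32 and 8.92 in CD103-Klrg1- cells, with differences of 1.95 ± 0.43 and 1.60 ± 0.43 for the same steps. Both S100 genes thus lay higher at each step. S100a10, the Anxa2 partner, had 12.76 and 12.36 in CD103+Klrg1+ cells, 11.92 and 11.61 in CD103+Klrg1- cells, and 11.72 and 11.33 in CD103-Klrg1- cells. The CD103+Klrg1+ arrays stood above the others, and the other subsets overlapped.

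Anxa1, an annexin known for anti-inflammatory signalling through formyl peptide receptors, differed mainly at the second step. It had 10.09 and 10.43 in CD103+Klrg1+ cells, 7.17 and 7.13 in CD103+Klrg1- cells, and 6.31 and 6.51 in CD103-Klrg1- cells, the last close to the minimum. The difference was 3.11 ± 0.33 between CD103+Klrg1+ and CD103+Klrg1- cells, but 0.74 ± 0.33 between CD103+Klrg1- and CD103-Klrg1- cells. Anxa4 had 10.69 and 11.08 in CD103+Klrg1+ cells, 9.97 and 10.14 in CD103+Klrg1- cells, and 8.75 and 9.19 in CD103-Klrg1- cells. Its subsets did not overlap, and the steps were of like size, 0.82 ± 0.33 and 1.09 ± 0.33. Anxa2 was higher by 0.67 ± 0.52 and Anxa5 by 0.30 ± 0.41 in CD103+Klrg1+ than in CD103-Klrg1- cells, sizes near their standard errors.

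Lgals3, galectin-3, which bridges surface glycoproteins, had 8.49 and 8.07 in CD103+Klrg1+ cells, 5.78 and 5.70 in CD103+Klrg1- cells, and 6.15 and 5.98 in CD103-Klrg1- cells. The means of both Klrg1- subsets lay below the minimum, so the difference of CD103+Klrg1+ cells is a lower bound, at least 2.54 ± 0.41 over CD103+Klrg1- and at least 2.21 ± 0.41 over CD103-Klrg1- cells. Lgals1, galectin-1, had 11.98 and 11.02 in CD103+Klrg1+ cells, 10.12 and 9.91 in CD103+Klrg1- cells, and 9.92 and 9.32 in CD103-Klrg1- cells. It was above both Klrg1- subsets on both CD103+Klrg1+ arrays, by 1.48 ± 0.66 and 1.88 ± 0.66.

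Counted over CD103+Klrg1+ against CD103-Klrg1- cells, 9 of 9 genes were higher without overlap of arrays, as were 18% of all genes, and 5 of 9 were past the threshold (Anxa1, S100a4, S100a6, Lgals3 and Anxa4), as were 1.47% of all genes. Their median difference was 1.91, against -0.012 over all genes tested. For CD103+Klrg1+ against CD103+Klrg1- cells, 8 of 9 were higher without overlap (15.7% of all genes) and 3 were past the threshold (Anxa1, Lgals3 and S100a6, 0.384% of all genes). For CD103+Klrg1- against CD103-Klrg1- cells, 6 of 9 did not overlap (29.7% of all genes). Of these 5 were higher, and Lgals3 lay below the minimum in both groups, so its difference has no direction. In that comparison limma put 0 of 9 past the threshold (0.0959% of all genes) and 4 of 9 under an unadjusted p of 0.05 (2.04% of all genes). The 3 comparisons share arrays, and the genes were chosen with these values known, so nothing further is read from the counts. The summed intensity of 6 B cell markers was also highest in CD103+Klrg1+ cells, 1890 to 3010 units, against 926 to 1550 in CD103+Klrg1- and 1460 to 1570 in CD103-Klrg1- cells. In each of the 3 subsets 5 of the 6 lay above the minimum, with Ms4a1 (CD20) at 10.36, 9.10 and 9.63 in the same order, and Cd79a stayed below it, at 6.07, 5.70 and 5.98. Over the 23 arrays of all systems Ms4a1 correlated with the 9 genes at -0.34 to 0.19, a description of arrays that share groups. That range gives no measure of the relation among the lymph node arrays, and the part of Ms4a1 in the differences was not tested. The 15 myeloid and dendritic markers summed to 12800 to 14600 units in CD103+Klrg1+ cells, 13500 to 13900 in CD103+Klrg1- cells and 11400 to 12100 in CD103-Klrg1- cells, of which Ctss, cathepsin S, made up 80.5% to 89.8%. The other 14 summed to 1480 to 2850 units in CD103+Klrg1+ cells, 1420 to 1460 in CD103+Klrg1- cells and 1490 to 1850 in CD103-Klrg1- cells. Of the 14 myeloid markers tested, 11 had a positive difference in CD103+Klrg1+ over CD103+Klrg1- cells, 5 of them without overlap, with a median of 0.36, against 0.0075 over all genes. Over CD103-Klrg1- cells 9 of 14 were positive, 2 without overlap, with a median of 0.15, against -0.012. The macrophage gene Lyz2 stood at 7.42 and 8.08 in CD103+Klrg1+ cells, 7.41 and 7.12 in CD103+Klrg1- cells, and 7.12 and 7.42 in CD103-Klrg1- cells. The second CD103+Klrg1+ array was above all 4 arrays of the other subsets and the first within their range, and the part of these markers in the differences was not tested.

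**Figure D2:**
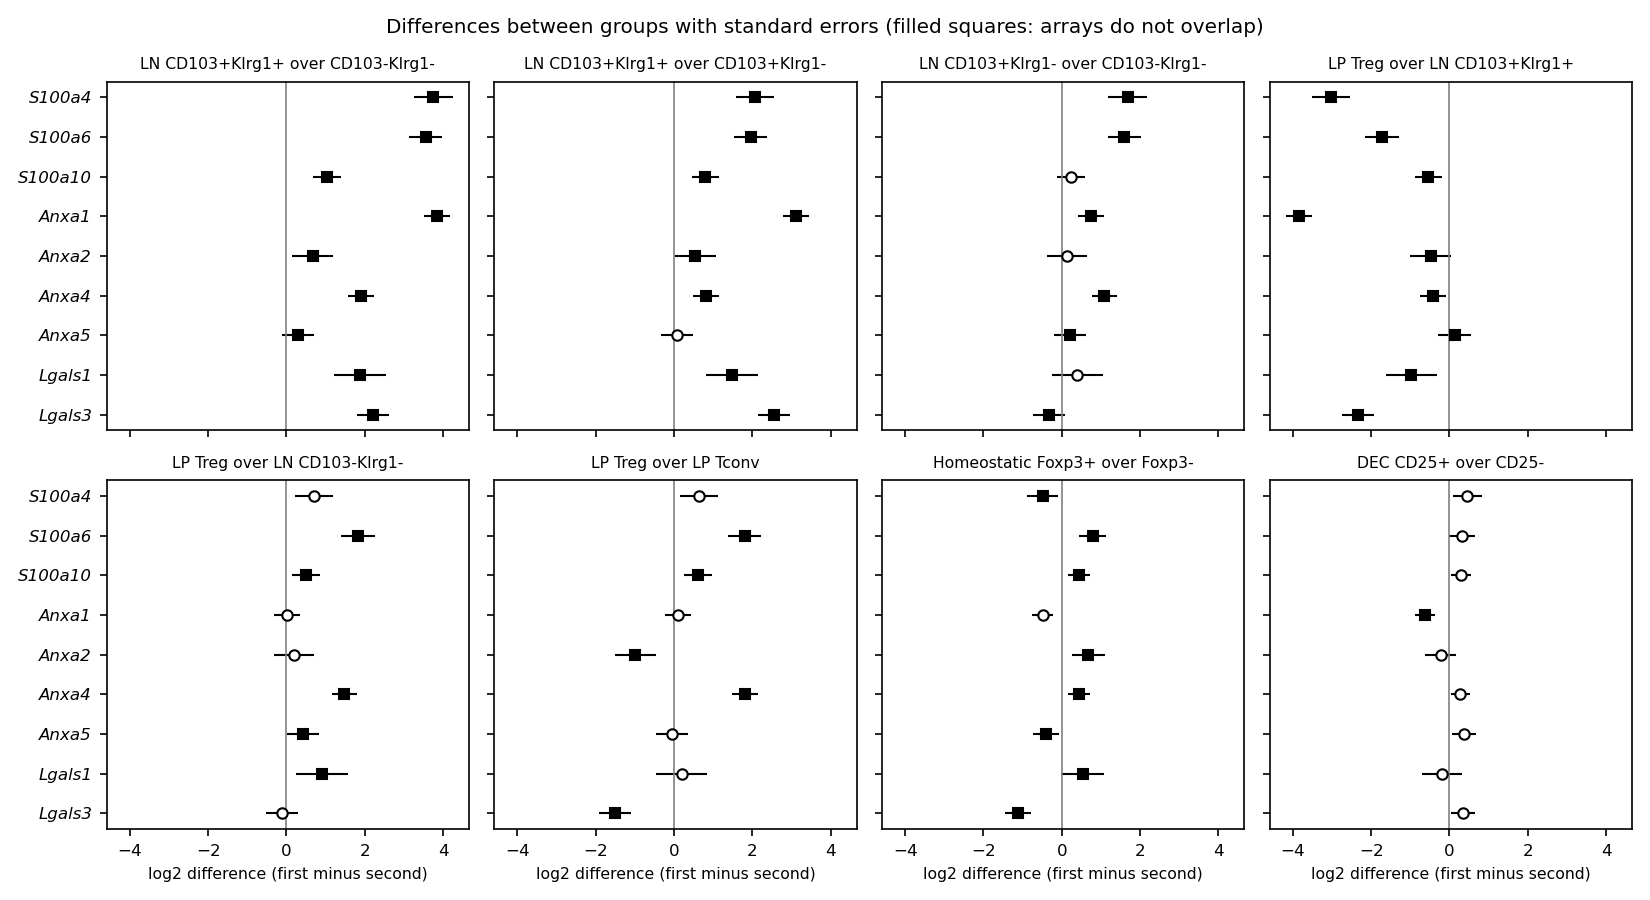
Log2 differences (horizontal axis, first group minus second) with standard errors for 9 genes in 8 comparisons; filled squares mark genes whose arrays do not overlap between the groups. In the comparison of LN CD103+Klrg1+ with CD103-Klrg1- cells all 9 lie right of 0, and in that of LP Treg with LN CD103+Klrg1+ cells 8 of 9 lie left of it. Lgals3 was below the minimum in LP Treg, LN CD103+Klrg1- and LN CD103-Klrg1- cells, so its difference from a brighter group is a lower bound and that between 2 of these groups has no meaning.

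Gut regulatory cells also carry CD103 and Klrg1 transcripts, with Itgae at 13.01 in LP Treg and 13.26 in LN CD103+Klrg1+ cells, and Klrg1 at 13.38 in LP Treg and 14.16 in LN CD103+Klrg1+ cells, so the 9 genes were compared between these groups. In LP Treg 8 of 9 were lower without overlap and Anxa5 was higher without overlap, while 49.5% of all genes did not overlap. By the brightest probe sets, the differences of S100a10 (-0.54), Anxa2 (-0.48), Anxa4 (-0.43) and Anxa5 (0.13) were smaller in size than that of Klrg1 (-0.78). Of the further S100a10 probe sets, 1 had -1.49 ± 0.35 (7.38 in LP Treg and 8.87 in LN CD103+Klrg1+ cells) and another -0.18 ± 0.67. Anxa1 had 6.27 and 6.57 in LP Treg, against 10.09 and 10.43 in LN CD103+Klrg1+ cells, lower by 3.84 on the log2 scale (SE 0.33). That put LP Treg at the level of CD103-Klrg1- cells (6.31 and 6.51), with overlapping arrays. S100a4 had 7.83 and 9.49 in LP Treg, against 12.07 and 11.31 in CD103+Klrg1+ cells, a difference of -3.03 ± 0.49. Lgals3 had 5.70 and 6.20 in LP Treg, below the minimum, against 8.49 and 8.07 in CD103+Klrg1+ cells, lower by at least 5.03-fold. S100a6 had 10.30 and 11.60 in LP Treg, against 12.81 and 12.53 in CD103+Klrg1+ cells, a difference of -1.72 ± 0.43 that was -1.07 without LP Treg replicate 1. These 4 were past the threshold in the lower direction, as were 1.31% of all genes, and the median of the 9 genes was -0.97, against 0.047 over all genes. Markers of other cell types moved in the same comparison. Of 5 B cell markers tested 2 were called lower in LP Treg, Ms4a1 by at least 17.5-fold (6.23 in LP Treg and 10.36 in LN CD103+Klrg1+ cells, adjusted p = 1.07e-05 in limma) and Cr2 by at least 2.12-fold (adjusted p = 0.00466 in limma). The dendritic and B cell gene Cd74 was 3.09-fold lower (adjusted p = 0.0403 in limma), the 1 of 14 myeloid and dendritic markers called. Of 4 plasma cell markers Jchain was called, 15.8-fold higher (10.44 in LP Treg and 6.45 in LN CD103+Klrg1+ cells, adjusted p = 3.19e-05 in limma). Of 6 B cell markers, 3 lay above the minimum in LP Treg, against 5 in LN CD103+Klrg1+ cells. The 5 plasma cell markers summed to 3620 to 4970 units in LP Treg, against 2110 to 3150 in LN CD103+Klrg1+ cells. The part of these markers in the differences was not tested.

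Set against the CD103-Klrg1- subset, LP Treg were higher in S100a6 by 1.83 ± 0.43 and in Anxa4 by 1.48 ± 0.33, the 2 of 9 genes past the threshold in a comparison that called 2.43% of all genes higher. In all 5 of 9 were higher without overlap, and the share over all genes was 30%. The S100a6 difference was 1.19 without LP Treg replicate 2. Against CD103-Klrg1- cells too, LP Treg were lower in Ms4a1 by at least 10.5-fold (adjusted p = 2.77e-05 in limma) and in Cr2 by at least 1.71-fold (adjusted p = 0.0295 in limma), and 16.1-fold higher in Jchain (adjusted p = 1.58e-05 in limma). A summed list of 10 stress and immediate early genes reached 28400 to 29500 intensity units in LP Treg, against 9210 to 14600 in LN CD103+Klrg1+ and 8300 to 9040 in LN CD103-Klrg1- cells, and the part of these markers and of that list in the differences was not tested.

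Within the gut, the 2 of 9 genes past the threshold between LP Treg and LP Tconv were Anxa4 and S100a6, both higher in LP Treg (1.41% of all genes). The 2 LP Treg arrays are the same as in the comparisons above. Anxa4 had 10.36 and 10.54 in LP Treg, against 9.03 and 8.27 in LP Tconv, a difference of 1.80 ± 0.33. S100a6 had 10.30 and 11.60 in LP Treg, against 9.21 and 9.10 in LP Tconv, a difference of 1.80 ± 0.43 that was 1.15 without LP Treg replicate 2. Lgals3 ran the other way, with 5.70 and 6.20 in LP Treg, against 7.26 and 7.65 in LP Tconv, lower by at least 2.83-fold. Anxa2 had 9.09 and 9.19 in LP Treg, against 9.20 and 11.06 in LP Tconv, a difference of -0.99 ± 0.52 that the second LP Tconv array set. In all, 5 of 9 genes did not overlap here (30.9% of all genes), 3 higher in LP Treg (Anxa4, S100a6, S100a10) and 2 lower (Anxa2, Lgals3). Anxa1 was at 6.42 ± 0.22 in LP Treg and 6.32 ± 0.21 in LP Tconv (SD, n = 2 each), close to the minimum in both.

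In the cells expanded in RAG-/- hosts, Foxp3+ and Foxp3- cells both held these transcripts at high levels and differed from each other by at most 2.17-fold (Lgals3). S100a6 had 13.45, 13.25 and 13.29 in Foxp3+ cells, against 12.55, 12.61 and 12.46 in Foxp3- cells, a difference of 0.79 ± 0.35. Anxa2 had 11.82, 11.47 and 11.82 in Foxp3+ cells, against 11.10, 11.09 and 10.89 in Foxp3- cells, a difference of 0.68 ± 0.42. S100a10 (0.44 ± 0.28), Anxa4 (0.44 ± 0.27) and Lgals1 (0.53 ± 0.54) were likewise higher in Foxp3+ cells without overlap. Lgals3 was lower in Foxp3+ cells, with 9.56, 9.22 and 9.34 there, against 10.69, 10.39 and 10.39 in Foxp3- cells, a difference of -1.12 ± 0.34. S100a4 (-0.49 ± 0.40) and Anxa5 (-0.41 ± 0.33) were also lower without overlap, and the Anxa1 arrays overlapped. So 8 of 9 genes did not overlap, 5 higher and 3 lower, as did 22.3% of all genes. Limma put 0 of 9 past the threshold (1.76% of all genes) and 2 under an unadjusted p of 0.05 (7.57% of all genes), and with the replicate number as a block 1 was past it (Lgals3), as were 3.84% of all genes.

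The homeostatic arrays also carried more granulocyte transcripts than other arrays, and their myeloid sums reached higher. Of 15 myeloid and dendritic markers, 14 lay above the minimum in both homeostatic groups, and their summed intensity was 13300 to 20700 units in Foxp3+ and 16000 to 27600 in Foxp3- cells, against 6100 to 14600 in the other groups, which the Foxp3+ range overlaps. Without Ctss the sums were 3240 to 10900 units in Foxp3+ and 5500 to 17400 in Foxp3- cells, against 1310 to 5070 in the other groups. All 8 measured granulocyte markers were above the minimum, at 1270 to 5290 units in Foxp3+ and 2690 to 7680 in Foxp3- cells, against 446 to 617 elsewhere, where 2 of 8 were above it. Lyz2 had 9.43, 11.51 and 10.79 in Foxp3+ cells, and 10.42, 12.26 and 11.03 in Foxp3- cells. Over the 23 arrays Lyz2 correlated with the 9 genes at 0.33 (Anxa4) to 0.85 (Lgals3), a description of arrays that share groups. In homeostatic Foxp3+ over Foxp3- cells 0 of 14 myeloid markers tested were positive (median -0.54, against -0.027 over all genes). Of 8 granulocyte markers 1 was positive there (median -0.55), and limma called 0 of either list (1.76% of all genes). Groups of 3 arrays give no measure of the relation within a group, and the part of these transcripts in the levels and differences was not tested. The markers of CD8 T and NK cells summed to 1430 to 1930 units in Foxp3+ and 1830 to 2430 in Foxp3- cells, against 256 to 667 elsewhere, led by Eomes, which activated CD4+ cells can also express. Of the 5, 3 lay above the minimum in both, Eomes, Cd8a and the NK cell gene Ncr1. Cd8a had 7.24 and 7.13, against 6.83 to 7.11 in the other groups, and Ncr1 had 6.53 and 6.65, against 5.23 to 5.70. Cd8b1 stayed below the minimum in both, at 6.10 and 6.02. The part of these markers in the levels was not tested.

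**Figure D3:**
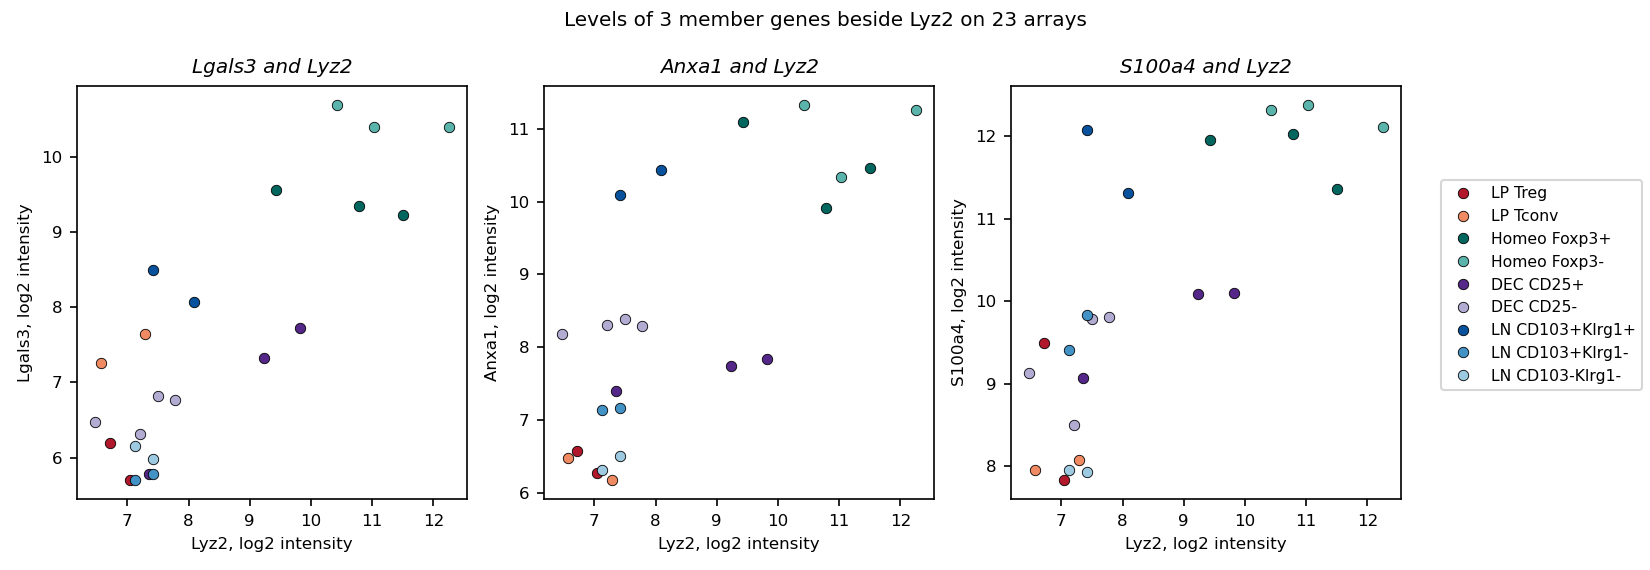
Log2 intensity of Lgals3, Anxa1 and S100a4 (vertical axes) against that of the macrophage gene Lyz2 (horizontal axis), 1 point per array, coloured by group. Over the 23 arrays Lyz2 had r = 0.85 with Lgals3, 0.75 with Anxa1 and 0.77 with S100a4, and Lyz2 stood at 9.43 to 12.26 on the 6 homeostatic arrays.

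After the peptide treatment the DEC groups differed little in these genes by their brightest probe sets. The median of all genes was 0.16 higher in CD25+ than in CD25- cells, and -0.042 after quantile normalization, so small differences here depend on the scaling. Anxa1 had 7.40, 7.84 and 7.74 in CD25+ cells, against 8.18, 8.29, 8.39 and 8.31 in CD25- cells. It was lower by 0.63 on the log2 scale (SE 0.25), with a difference of -0.96 after quantile normalization, and was the only one of 9 without overlap (5.46% of all genes). The other 8 differences ran from -0.22 ± 0.40 (Anxa2) to 0.45 ± 0.37 (S100a4), and from -0.53 to 0.20 after quantile normalization. Further S100a10 probe sets had 1.17 ± 0.51 and -0.59 ± 0.27 here, where the brightest had 0.30. Limma put 0 of 9 past the threshold (0.495% of all genes) and 1 under an unadjusted p of 0.05 (14.8% of all genes). CD25+ replicate 1 was the lowest array of its group in 8 of 9 genes, Anxa4 being the exception. Lgals1 had 8.78 there, against 11.17 and 11.20 on the other CD25+ arrays, and Lgals3 had 5.78, against 7.72 and 7.32. The myeloid and dendritic markers summed to 10100 to 12500 units in CD25+ and 6100 to 10100 in CD25- cells, with 14 and 11 of 15 above the minimum. Of the 14 tested, 14 were positive in CD25+ over CD25- cells (median 0.74, against 0.16 over all genes). Of these 3 did not overlap (5.46% of all genes) and 0 were called, and their part in the differences was not tested. Lyz2 (7.35, against 9.82 and 9.24) and Itgae (8.57, against 10.74 and 10.42) were low on CD25+ replicate 1 too, and their part in the result was not tested. Without it the differences were 0.62 for Lgals1 and 0.92 for Lgals3, in place of -0.18 and 0.34. Without the dim CD25- replicates 3 and 4, S100a6 was at -0.26 and Anxa4 at -0.16, in place of 0.31 and 0.28.

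Over the 9 group means, which come from shared arrays, the most alike pairs were S100a6 with S100a10 (Pearson r = 0.98) and Anxa1 with S100a4 (r = 0.97), given as a description. Anxa2 and its partner S100a10 had r = 0.76. Anxa5 was the least like the mean of the 9 genes (r = 0.61), then Anxa4 (r = 0.67), and Lgals1 the most (r = 0.96). Among the other tested genes, Niban2 (r = 0.97), Rxra, Ikbip and Msc (r = 0.96 each) and Tmem185a, Rrm2, Cgas and Rab31 (r = 0.95 each) had the most similar profile to that mean. Over single arrays (n = 23) S100a6 was most like Niban2 (r = 0.95), and Lgals3 like Ifi30 and Rap1gap2 (r = 0.91 each). Anxa4 was most like Lamp2, a lysosomal membrane protein (r = 0.94), and Anxa2 like Glipr2 and Plk1 (r = 0.94 each).

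The further probe sets of these genes mostly ran at lower levels. That of Anxa1 lay below the minimum in every group, at 5.16 to 5.91, and those of Anxa2 lay at 2.89 to 3.25 and 4.55 to 5.56, so they carry little on their own. A weaker Anxa4 probe set gave 1.09 ± 0.28 between LN CD103+Klrg1+ and CD103-Klrg1- cells, in place of 1.91. Of S100a10, 1 further probe set (6.82 to 9.01) disagreed in sign, with -0.59 between DEC CD25+ and CD25- cells, where the brightest had 0.30, and -0.36 between LP Treg and LN CD103-Klrg1- cells, where the brightest had 0.50. Another S100a10 probe set, close to the brightest in level (10.66 to 12.57), had 1.17 ± 0.51 between DEC CD25+ and CD25- cells. The S100a10 probe sets thus ran from -0.59 to 1.17 there. The second Lgals1 probe set was at 0.23 between DEC CD25+ and CD25- cells, where the brightest had -0.18.

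The 3 families hold 28 further genes. Of them 14 were tested, 10 stayed below the minimum in every group, 3 had no probe set of their own (S100a7a, S100z and Lgals6) and Anxa11 only a probe set with several symbols. Limma called 1 difference in the 8 comparisons. Lgals7, a galectin of stratified epithelia, had 7.05, 6.95 and 7.66 in homeostatic Foxp3+ cells, against 6.29, 6.20 and 6.06 in homeostatic Foxp3- cells. The groups did not overlap, and Lgals7 rose by at least 1.03 ± 0.18 (adjusted p = 0.00274, limma with Benjamini-Hochberg adjustment), or with adjusted p = 0.0106 with the replicate number as a block. In LN CD103+Klrg1+ over CD103+Klrg1- cells 14 of 14 differences were positive (median 0.22, against 0.0075 over all genes), 6 of them without overlap (15.7% of all genes). Over CD103-Klrg1- cells 11 of 14 were positive in CD103+Klrg1+ cells (median 0.27, against -0.012), 6 without overlap (18% of all genes). In LP Treg over LN CD103-Klrg1- cells 12 of 14 were positive (median 0.27, against 0.047), 8 without overlap (30% of all genes). In the other 7 comparisons 0 of 14 were called, and at an unadjusted p under 0.05 there were 0 in LP Treg against LP Tconv, in DEC CD25+ against CD25- and in the single-step lymph node comparisons. There was 1 each in LN CD103+Klrg1+ against CD103-Klrg1- cells (Lgalsl, 0.73 ± 0.26, adjusted p = 0.266 in limma), in LP Treg against LN CD103-Klrg1- cells (Lgalsl, 0.76 ± 0.26, adjusted p = 0.117 in limma) and in LP Treg against LN CD103+Klrg1+ cells (Lgals7, 0.49 ± 0.22, adjusted p = 0.423 in limma).

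S100a8 and S100a9, the calprotectin subunits of neutrophils, stood out by level and are also among the granulocyte markers. S100a8 had 7.74, 10.25 and 8.80 in homeostatic Foxp3+ cells and 9.10, 10.75 and 8.80 in homeostatic Foxp3- cells, while its other group means ran from 4.71 to 4.96. S100a9 had 7.56, 9.70 and 8.62 in homeostatic Foxp3+ cells and 8.91, 10.53 and 9.04 in homeostatic Foxp3- cells, a difference of -0.87 ± 0.41 (adjusted p = 0.648 in limma). With the replicate number as a block this difference was called (adjusted p = 0.0159 in limma), so 2 of 14 genes were called there, as were 3.84% of all genes. Of the abundant genes, Anxa6 ranged over group means of 9.99 to 10.91, Lgals8 over 8.33 to 10.46, S100a13 over 8.74 to 9.85, Anxa7 over 7.81 to 9.41 and Lgals9 over 7.71 to 8.87. The differences between the systems' own contrasts (LP, homeostatic and DEC) were tested as interactions, and limma called 0 of 14 genes in each of the 3. The share of all genes called was 0.336% for homeostatic minus DEC, 1.01% for LP minus DEC and 0.775% for LP minus homeostatic. At an unadjusted p under 0.05 there were 1 of 14 for homeostatic minus DEC (8.41% of all genes), 1 for LP minus DEC (9.5%) and 2 for LP minus homeostatic (5.51%).

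**Figure D4:**
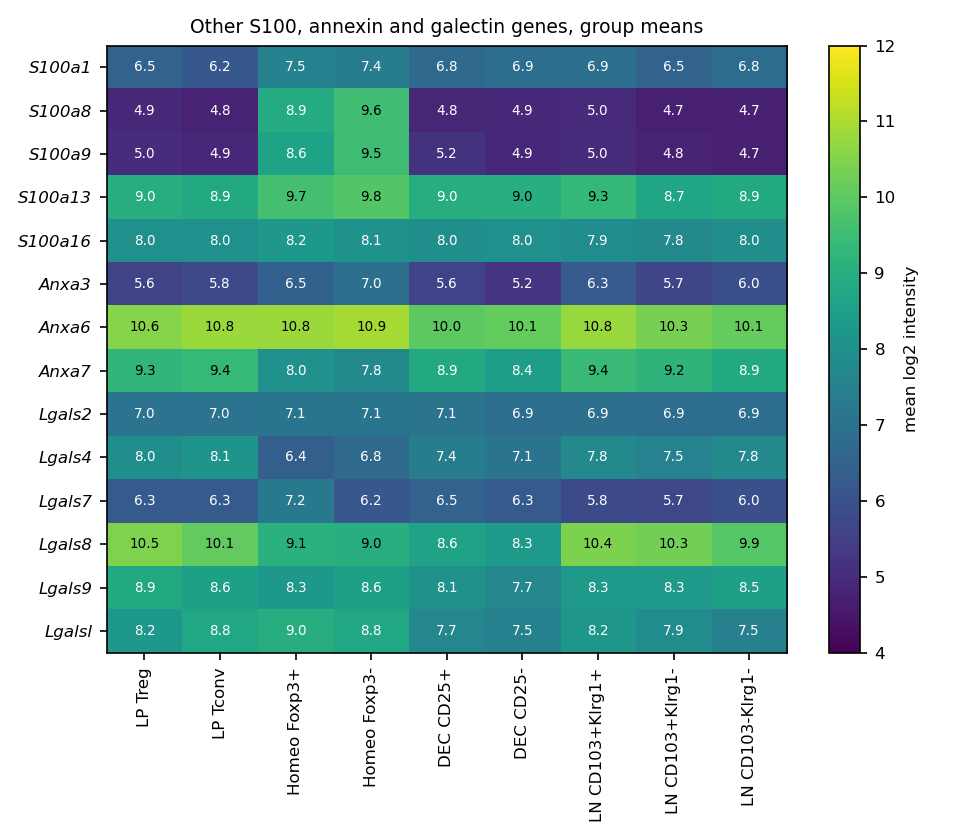
Group means (log2 intensity, colour and printed value) of the 14 other S100, annexin and galectin genes tested, over 9 groups. S100a8 and S100a9 average 8.63 to 9.55 in both homeostatic groups and 5.16 or lower elsewhere.

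Genes that work with these proteins were read from 2 lists. For all genes, limma called 2.7% in LP Treg against LP Tconv, 1.76% between the homeostatic and 0.495% between the DEC groups. The share was 0.0959%, 0.647% and 2.1% between the lymph node subsets (CD103+Klrg1- against CD103-Klrg1-, CD103+Klrg1+ against CD103+Klrg1-, and CD103+Klrg1+ against CD103-Klrg1-). It was 4.55% in LP Treg against LN CD103-Klrg1- and 2.05% against LN CD103+Klrg1+ cells. At an unadjusted p under 0.05 the share of all genes was 8.71% in LP Treg against LP Tconv, 3.83% in LN CD103+Klrg1+ against CD103+Klrg1- and 6.81% against CD103-Klrg1- cells, and 14.6% and 10.5% in LP Treg against LN CD103-Klrg1- and LN CD103+Klrg1+ cells. Of 17 annexin and S100 partners tested, limma called 0 in all 8 comparisons, with 0 to 2 at an unadjusted p under 0.05. Ahnak, a giant scaffold protein that binds the Anxa2 and S100a10 complex, was at 13.22 in LN CD103+Klrg1+ cells and 11.90 in LN CD103-Klrg1- cells, a difference of 1.32 ± 0.50 (adjusted p = 0.364 in limma). Of 19 genes of galectin ligands, receptors and glycan branching, 4 were called in at least 1 comparison. Gcnt1, the enzyme that starts core 2 branches on O-glycans, had 10.27 and 10.42 in LN CD103+Klrg1+ cells, 8.77 and 8.87 in CD103+Klrg1- cells, and 6.66 and 6.55 in CD103-Klrg1- cells. The subsets did not overlap, and Gcnt1 rose at each step, by 1.53 ± 0.33 in CD103+Klrg1+ over CD103+Klrg1- cells (adjusted p = 0.0429, limma) and by 2.22 ± 0.33 in CD103+Klrg1- over CD103-Klrg1- cells (adjusted p = 0.00584, limma). Each of these single-step calls ended when any 1 array of the pair was left out (adjusted p up to 0.369 and 0.202 in limma). The full difference, 3.74 ± 0.33, had adjusted p = 2.52e-06 in limma. In LP Treg Gcnt1 had 6.68 and 7.34 and was 10.1-fold lower than in LN CD103+Klrg1+ cells (-3.34 ± 0.33, adjusted p = 1.43e-05 in limma). It was also lower in homeostatic Foxp3+ cells, 7.13, 7.12 and 6.86, against 8.51, 8.73 and 8.33 in homeostatic Foxp3- cells (-1.49 ± 0.27, adjusted p = 0.00447 in limma). With the replicate number as a block, 4 of 19 genes fell there in place of 1, with Cd7 (-0.82, adjusted p = 0.0258 in limma), Lgals3bp (-0.95, adjusted p = 0.0125 in limma) and Mgat5 (-1.02, adjusted p = 0.0291 in limma) added. Of all genes, the block called 3.84% between the homeostatic groups in either direction, in place of 1.76%.

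Havcr2, which encodes Tim-3, a receptor for galectin-9, had 8.65 and 8.16 in LN CD103+Klrg1+ cells, 5.85 and 6.40 in CD103+Klrg1- cells, and 4.57 and 4.74 in CD103-Klrg1- cells. It rose by at least 3.75 ± 0.41 in CD103+Klrg1+ over CD103-Klrg1- cells (adjusted p = 2.88e-05 in limma) and by at least 2.28 ± 0.41 over CD103+Klrg1- cells (adjusted p = 0.0109 in limma). The second call ended without CD103+Klrg1+ replicate 1 (adjusted p = 0.189 in limma) or CD103+Klrg1- replicate 1 (0.223). In LP Treg it had 7.57 and 7.03, against 5.56 and 4.67 in LP Tconv, at least 2.18 ± 0.41 higher (adjusted p = 0.0046 in limma). Lag3, an inhibitory receptor that galectin-3 can bind, had 7.41 and 7.15 in LP Treg, against 6.20 and 6.18 in LP Tconv, at least 1.09 ± 0.21 higher (adjusted p = 0.0048 in limma). Mgat4a, an N-glycan branching enzyme, had 7.97 and 7.84 in LP Treg, against 8.82 and 8.90 in LP Tconv, and fell by 0.95 on the log2 scale (adjusted p = 0.0131 in limma). These 3 gut calls ended without LP Treg replicate 1, with adjusted p of 0.0957 (Havcr2), 0.0971 (Lag3) and 0.0736 (Mgat4a) in limma. Those of Havcr2 (0.0945) and Mgat4a (0.101) also ended without LP Tconv replicate 2, and that of Mgat4a without LP Treg replicate 2 (0.128), with array weights (0.088) and with the mean of probe sets, where its difference was -0.55 (0.0768). All 3 ended when the 4 gut arrays were fitted alone (adjusted p = 0.199, 0.245 and 0.292 for Havcr2, Lag3 and Mgat4a in limma). Lag3 was also higher in LP Treg than in LN CD103+Klrg1+ cells (6.08 and 6.06), by at least 1.21 ± 0.21 (adjusted p = 0.00264 in limma, 0.0677 without LP Treg replicate 1). In DEC CD25+ against CD25- cells 0 of 19 were called by limma, with 2 at an unadjusted p under 0.05.

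**Figure D5:**
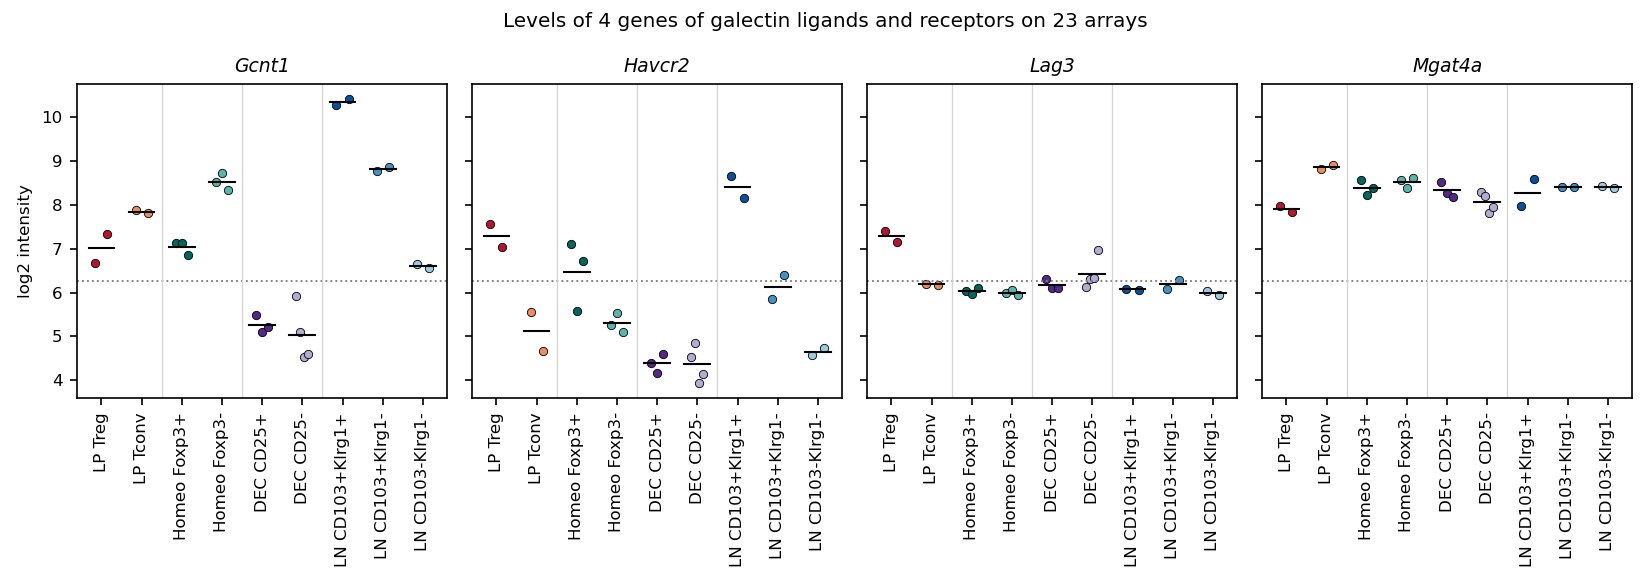
Log2 intensity (vertical axis) of Gcnt1, Havcr2, Lag3 and Mgat4a on each of 23 arrays by group, with bars at the group means and a dotted line at the minimum of 6.27. Gcnt1 stands at 10.35 in LN CD103+Klrg1+ cells, 8.82 in CD103+Klrg1- cells and 6.60 in CD103-Klrg1- cells, and Lag3 is above the line on both LP Treg arrays.

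Wider gene groups of T cell state are given beside these values. The share of all genes called, in either direction, was 2.1% in LN CD103+Klrg1+ against CD103-Klrg1- cells. It was 4.55% in LP Treg against LN CD103-Klrg1- cells and 2.05% against LN CD103+Klrg1+ cells. Between the homeostatic groups it was 1.76%, and between the DEC groups 0.495%. Of 19 effector and memory genes, 11 rose and 0 fell in LN CD103+Klrg1+ over CD103-Klrg1- cells. They included the granule protease Gzmb (5.48 ± 0.31, adjusted p = 2.08e-08 in limma), the chemokine receptor Ccr2 (3.92 ± 0.38, adjusted p = 5.73e-06 in limma) and the secreted protein Fgl2 (4.17 ± 0.41, adjusted p = 6.3e-06 in limma). In LP Treg over LN CD103-Klrg1- cells 12 of 19 rose and 0 fell, and in LP Treg over LN CD103+Klrg1+ cells 4 rose and 0 fell, with 13 of 19 positive and a median of 0.14, against 0.047 over all genes. There Il10, an anti-inflammatory cytokine, averaged 13.77 ± 0.34 in LP Treg and 9.86 ± 0.46 in LN CD103+Klrg1+ cells (SD, n = 2 each; adjusted p = 0.000182, limma). In LP Treg over LP Tconv 3 of the 19 effector genes rose and 2 fell, and 3 of the 12 naive T cell genes named below fell (2.7% of all genes called). In homeostatic Foxp3+ over Foxp3- cells 3 effector genes rose and 2 fell, or 10 of 19 were called with the replicate number as a block (3.84% of all genes). In DEC CD25+ over CD25- cells 4 rose and 0 fell, or 2 of 19 were called with the block (1.11% of all genes). Of 12 genes of naive T cells, 3 fell and Il7r rose in LN CD103+Klrg1+ over CD103-Klrg1- cells (the Il7r call ended without any 1 of the 4 arrays, adjusted p up to 0.18 in limma, and with the mean of probe sets, 0.241), and 6 fell in LP Treg over LN CD103-Klrg1- cells. Of 20 genes of actin, membrane and lamina, 2 rose and 0 fell in LN CD103+Klrg1+ over CD103-Klrg1- cells, the motor protein gene Myo1f (at least 2.80 ± 0.52, adjusted p = 0.00431 in limma) and Vcl, vinculin (1.08 ± 0.26, adjusted p = 0.0316 in limma). The Myo1f call ended without CD103+Klrg1+ replicate 1 (adjusted p = 0.0903 in limma) or CD103-Klrg1- replicate 2 (0.0917). The Vcl call ended without any 1 of the 4 arrays (up to 0.216) and under quantile (0.0868) and cyclic loess normalization (0.0728). Of the same 20 genes 2 rose and 2 fell in LP Treg over LN CD103-Klrg1- cells, and 0 rose and 1 fell over LN CD103+Klrg1+ cells. Vim, the intermediate filament protein of that list, had r = 0.89 with Lgals1 over the 23 arrays.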

How the data were processed

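The deposited values are array intensities that the authors made with the RMA algorithm in GenePattern (version not given in the sources used here), per the series' design text and the submitters' processing notes. They lie on a linear scale, from 4.706 to 26750, and log2 was taken with no pseudocount. The annotation named 34945 of 45101 probe sets by 1 symbol, which gave 18193 genes, and the probe set with the highest mean stood for a gene. A gene was tested when 1 group mean or more exceeded 6.27 (77.0 intensity units), which left 12516. With limma 3.58.1 (lmFit, eBayes; R 4.3.3), 9 group means were estimated from the 23 arrays together, with 14 residual and 3.48 prior degrees of freedom and two-sided, Benjamini-Hochberg adjusted p. The fit was tested on simulated data. A difference whose lower group mean lay under 6.27 is given as "at least". Tables and figures used Python 3.11.15, pandas 2.3.3, numpy 2.4.6 and matplotlib 3.10.9.

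Arrays are pools of mice, so p-values measure the spread between pools, and their number limits the precision. Residuals of same-number arrays correlated at 0.66, 0.58 and 0.49 in the homeostatic and 0.39, 0.51 and 0.38 in the DEC groups, so those numbers were read as pairs, which the labels do not settle. The members and lists were chosen with earlier results of these data known. Named genes were the members, called family genes, up to 4 called partners and up to 3 called genes of other lists per comparison by smallest p, the sort markers and the genes most alike in profile. Lgalsl, Ahnak, S100a9, Cd7, Lgals3bp and Mgat5 were named after their values were seen. Alternatives were quantile and cyclic loess normalization, no filter, the mean of probe sets, the arrays compared only, array weights, the replicate block, and leaving out arrays.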

Additional observations from a re-analysis of the deposited data

Results flagged for a closer look

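The group means of Anxa2 went opposite ways in 2 systems. Anxa2 was lower in LP Treg than in LP Tconv (-0.99 ± 0.52) and higher in homeostatic Foxp3+ than in Foxp3- cells (0.68 ± 0.42). In the gut the higher LP Treg array (9.19) lay level with the lower LP Tconv array (9.20). The difference between the systems was not tested for this gene, since it was chosen with these values known, and the LP value rests on 1 LP Tconv array at 11.06, against 9.20 on the other.

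Of 36 partner genes, 2 differed between the LP and the DEC contrasts in limma's interaction test, against 1.01% of all genes. Lag3 had at least 1.34 ± 0.26 (LP difference minus DEC difference, adjusted p = 0.0146), from at least 1.09 in LP Treg over LP Tconv and -0.25 in DEC CD25+ over CD25- cells, since LP Tconv (6.19) and DEC CD25+ cells (6.18) lay below the minimum. Mgat4a had -1.22 ± 0.26 (adjusted p = 0.0275), from -0.95 and 0.26. Among the 9 sets of 4 DEC CD25- arrays, 0 held an array far from the others.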

How the results depend on the processing

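Outside the leave-one-out settings, 592 of 640 recomputed differences of the 9 genes moved by less than the spread between arrays and 47 by more. The remaining 1 was counted as reversed: Anxa1 in LP Treg over LN CD103+Klrg1+ cells was 0.0047 with a probe set below the minimum in both groups. Other changes of sign were counted among the 592 or the 47, so the sign did not hold in all of these. A further S100a10 probe set had -0.59 and another 1.17 in DEC CD25+ over CD25- cells, where the brightest had 0.3. S100a6 and Anxa4 changed sign in the same comparison when the dim DEC CD25- arrays were left out. Of 152 recomputed counts of called family or partner genes, 23 moved by over 1.5 times, as did 13 of 74 that left out 1 array.

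In LP Treg against LP Tconv, 3 partner genes were called, 0 when the 4 arrays were fitted alone and 0 to 4 in the leave-one-out fits. In homeostatic Foxp3+ against Foxp3- cells 1 partner was called, 2 after quantile normalization, 5 from those arrays alone, 7 with array weights, 3 without DEC CD25- replicates 3 and 4, and 1 to 2 in the leave-one-out fits. With the replicate block there were 4 partners and 2 other family genes (3.84% of all genes). In DEC CD25+ against CD25- cells 0 partners were called by limma, 0 with the block and 0 to 1 in the leave-one-out fits. In LN CD103+Klrg1- against CD103-Klrg1- cells 1 partner was called, 2 with array weights and 0 in each leave-one-out fit. In LN CD103+Klrg1+ against CD103+Klrg1- cells 2 were called, and 0 to 1 in the leave-one-out fits. In LN CD103+Klrg1+ against CD103-Klrg1- cells 2 were called, 5 with the replicate block, 5 with array weights, 4 without DEC CD25- replicates 3 and 4, and 2 in each leave-one-out fit. Of the other family genes 0 were called there, and 1 with the block or with array weights. In LP Treg against LN CD103-Klrg1- cells 2 partners were called, 5 after quantile and 5 after cyclic loess normalization, 6 from those arrays alone, 5 with the block, 5 with array weights, 4 without the 2 DEC arrays, and 2 to 3 in the leave-one-out fits. Of the other family genes 0 were called, and 1 with the block or with array weights. In LP Treg against LN CD103+Klrg1+ cells 2 partners were called, 5 with array weights and 1 to 2 in the leave-one-out fits. Of the differences between contrasts, 0 other family genes were called for homeostatic minus DEC, and 1 with array weights. The causes of these moves were not tested.

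Same-number arrays of the gut and lymph node groups share only a number as far as the labels say, with residual correlations of -0.07 in the gut and 0.37 to 0.72 between lymph node subsets. With 2 arrays a group, arrays of unlike number give the same value with the opposite sign, so each comparison holds 1 such value. The block put 5 in place of 3 of the 9 genes past the threshold in LN CD103+Klrg1+ over CD103+Klrg1- cells (1.09% in place of 0.647% of all genes) and 7 in place of 5 over CD103-Klrg1- cells (3.62% in place of 2.1%). It also called Ahnak (adjusted p = 0.0283 in limma) and Lgalsl (0.046) in the second comparison, and Lgalsl (0.0439) in LP Treg over LN CD103-Klrg1- cells (7.66% in place of 4.55% of all genes). With 2 arrays a group the SD is itself uncertain, and levels near 6.27 have little signal over background.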
